A study of Mus musculus with 28 samples.

Results

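Cells sorted from the adult mouse subependymal zone (SEZ) on GLAST and labelled EGF were compared with cells sorted on the Troy-GFP reporter. The SEZ is the stem cell niche along the lateral ventricles. All 4 libraries of each sort were taken: 216 GLAST/EGF cells (55, 47, 52 and 62 in libraries 1 to 4) and 311 Troy-GFP cells (80, 76, 72 and 83). These 527 cells are part of the 1789 cells that the whole series of 28 libraries and 7 sorts gave, where a cell is a well with at least 1000 estimated transcripts. GLAST/EGF cells came from Bl/6 mice and were isolated by binding of a GLAST antibody, of fluorescent EGF ligand, or of both (GLAST is the protein of Slc1a3), so the gate can admit cells of either kind. Troy-GFP cells were the GFP-positive cells of Bl/6 mice carrying 1 copy of the Troy-GFPiresCreER knock-in allele, which places the reporter under Tnfrsf19, the gene of Troy. Mice of both sorts were 8 to 10 weeks old. The labels name no allele for the GLAST/EGF mice, no treatment for either sort and no number of mice per library, so the p-values may measure technical spread only. The study used Troy-GFP and GLAST to find neural stem cells (NSCs) and EGF binding to find dividing cells.

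Adult NSCs of the SEZ are astrocyte-like cells that are mostly quiescent. Once activated, they acquire the EGF receptor and enter the cell cycle, and they give rise to transit-amplifying progenitors, which divide rapidly and form neuroblasts bound for the olfactory bulb. GLAST is a glutamate transporter of NSCs and astrocytes, the EGF receptor is a growth factor receptor of activated NSCs and progenitors, and Troy is an orphan receptor of the tumour necrosis factor receptor superfamily.

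Each library held 360339 to 475271 transcripts in its GLAST/EGF cells and 418769 to 544025 in its Troy-GFP cells. The median cell held 6218 transcripts among GLAST/EGF cells and 5548 among Troy-GFP cells. Libraries 1 and 2 of GLAST/EGF and 3 and 4 of Troy-GFP were read on 1 flow cell and the other 4 on another, and the flow cell was a term of every gene model. The exact permutation tests of shares do not use it. Libraries 3 and 4 of GLAST/EGF and library 2 of Troy-GFP stood apart from the others of their sorts by transcripts of 24 intestinal epithelium genes, a list added after the data were seen. Their summed level was 13.5, 19.5, 208 and 678 transcripts per 1000000 (CPM) in GLAST/EGF libraries 1 to 4. In Troy-GFP libraries 1 to 4 it was 25.8, 1235, 19.1 and 18.4 CPM. Summed levels of gene lists are given without the library scaling used for single genes. At least 3 such transcripts were found in 13 and 24 cells of GLAST/EGF libraries 3 and 4, in 47 cells of Troy-GFP library 2 and in 1 cell of Troy-GFP library 4. The 3 libraries that stood apart were read on the same flow cell (AHY73KBGXX), as was Troy-GFP library 1. Every library uses the same 96 well barcodes, so barcodes do not tell libraries apart. Wells of any depth with at least 3 such transcripts numbered 56 in Troy-GFP library 2, and 24 and 36 in GLAST/EGF libraries 3 and 4. Troy-GFP library 2 shared 17 and 23 of these positions with GLAST/EGF libraries 3 and 4, which shared 19. So many wells among 96 positions share many by chance. No chance level was computed, so the shared positions alone do not link the libraries. The cause was not tested. All results below include the cells with such transcripts. Without them, 1784 of 7122 genes passed in the comparison of all cells (864 higher and 920 lower in GLAST/EGF). The clustering below was also repeated without the leading genes of the intestinal cluster.

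The genes that define the sorts were measured first. Slc1a3 (mm10 chr15:8634124-8710764, minus strand) stood at 1781, 1258, 1703 and 1873 CPM in the GLAST/EGF libraries and at 3412, 3439, 3423 and 3135 CPM in the Troy-GFP libraries. All 4 libraries sorted with the GLAST antibody and EGF thus lay below all 4 Troy-GFP libraries, at 1654 ± 273 against 3352 ± 145 CPM (SD, n = 4 each). The log2 fold change, given throughout as GLAST/EGF minus Troy-GFP with its standard error, was -1.03 ± 0.10 (limma voom, adjusted p = 2e-07). Egfr (chr11:16752203-16918158, plus strand), the gene of the EGF receptor, went the other way. It stood at 474, 377, 336 and 359 CPM in GLAST/EGF and at 228, 208, 176 and 247 CPM in Troy-GFP. The groups did not overlap, and the log2 fold change was 0.84 ± 0.14 (adjusted p = 0.00014). With every cell thinned to 1000 transcripts it was 0.32 ± 0.28 and did not pass (adjusted p = 0.46). Tnfrsf19 (chr14:60963875-61046490, minus strand), whose allele carries the Troy reporter, stood at 67.3, 97.2, 124 and 130 CPM in GLAST/EGF and at 173, 130, 102 and 129 CPM in Troy-GFP. Its libraries overlapped, and its log2 fold change of -0.34 ± 0.18 did not pass (adjusted p = 0.16). With the cells holding intestinal transcripts left out, it was -0.59 (adjusted p = 0.04). Troy-GFP mice carry the knock-in on 1 copy of this gene, and no allele is named for the GLAST/EGF mice. For Tnfrsf19, effects of the sort and of the allele therefore cannot be told apart.

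3 further genes label the other sorts of the series. Mki67 (chr7:135689784-135716361, minus strand), a nuclear protein of dividing cells, stood at 710, 540, 471 and 440 CPM in GLAST/EGF and at 267, 218, 152 and 328 CPM in Troy-GFP, a log2 fold change of 1.18 ± 0.18 (adjusted p = 3.7e-05). Cd24a, a surface protein high in neuroblasts, stood at 303, 323, 478 and 297 CPM against 142, 100, 150 and 116 CPM, a log2 fold change of 1.46 ± 0.18 (adjusted p = 2.9e-06). Both were higher in every GLAST/EGF library than in any Troy-GFP library. Prom1, a membrane protein of cells that touch the ventricle, stood at 28, 42.9, 24.4 and 17.1 CPM against 34.6, 24, 28.9 and 50.4 CPM, and its difference of -0.29 ± 0.32 did not pass (adjusted p = 0.53).

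**Figure D1:**
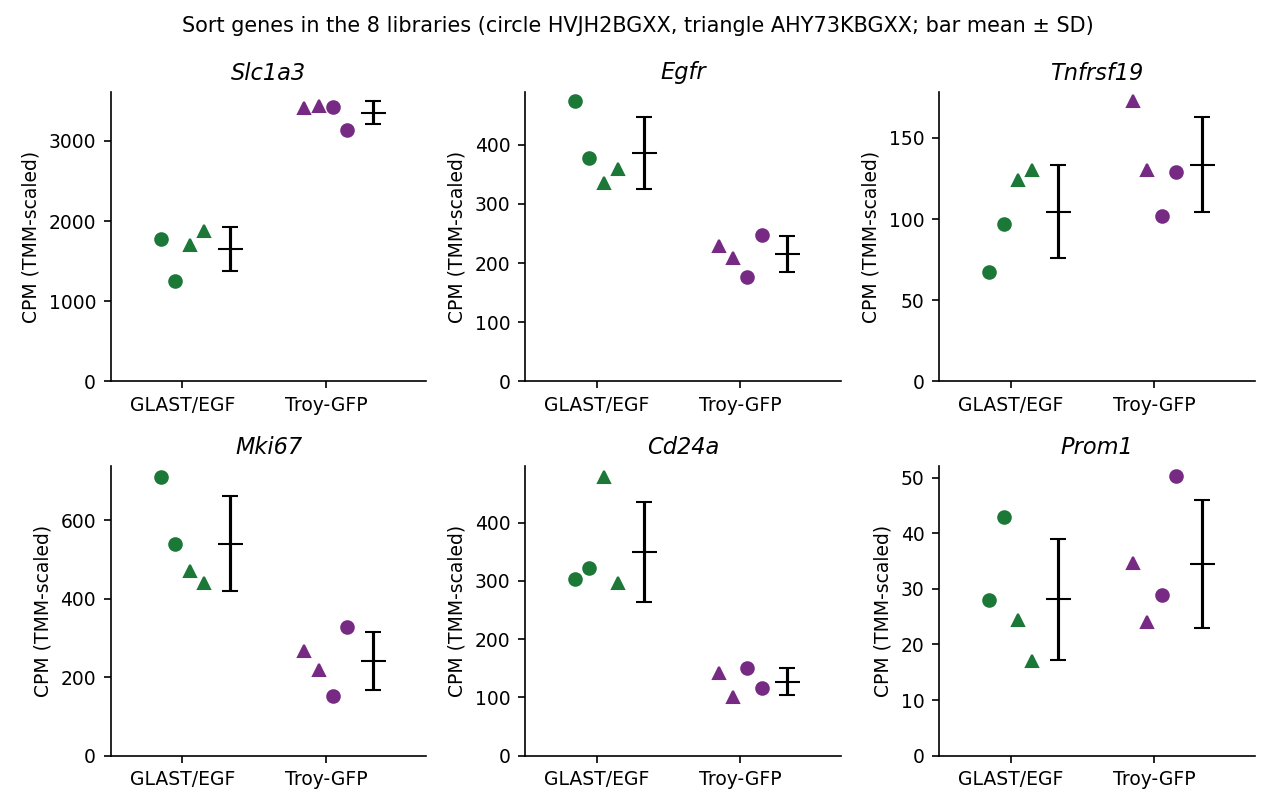
Levels of the 6 sort genes in each library, in CPM from 0 on the vertical axis, with 1 point per library (circles and triangles for the 2 flow cells) and the mean ± SD of each sort beside them. The 4 GLAST/EGF libraries sit below all Troy-GFP libraries for Slc1a3 and above them for Egfr, Mki67 and Cd24a, and the sorts overlap for Tnfrsf19 and Prom1.

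The same genes were counted cell by cell after each cell had been thinned to 1000 transcripts. Slc1a3 was found in 65.6% ± 7.51 of GLAST/EGF cells and 79.1% ± 2.06 of Troy-GFP cells (SD over 4 libraries, exact 2-sided permutation p = 0.0286, adjusted p = 0.0571 over 8 such shares). As background, 142 oligodendrocyte-like cells of all sorts, with a median of 4995 transcripts, gave 7.75% for Slc1a3 and 0% for Egfr after thinning. Egfr was found in 19.3% ± 3.57 against 14.6% ± 4.47 of thinned cells (exact permutation p = 0.171, adjusted p = 0.196). Without thinning, the Egfr shares were 57.2% ± 3.90 and 40.8% ± 4.68 (exact permutation p = 0.0286, adjusted p = 0.0571 over 8 shares). Cells with neither transcript made up 29.8% ± 7.85 of thinned GLAST/EGF cells and 16.7% ± 2.96 of thinned Troy-GFP cells (exact permutation p = 0.0286, adjusted p = 0.0571). None of these shares passed the adjusted threshold, and 0.0286 is the smallest p that 4 against 4 libraries can give.

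Over all cells, 2416 of the 7812 genes tested passed (30.9%). GLAST/EGF was higher for 1131 of them (14.5%) and lower for 1285 (16.4%), and the median log2 fold change of all genes tested was 0.00. The libraries of the sorts did not overlap for 2260 of all genes tested (28.9%), and 1925 of these passed. Of the genes that passed, 950 differed more than 2-fold, 316 higher and 634 lower. Leaving out 1 library at a time gave 1875 to 2282 genes that passed. Thinning every cell to 1000 transcripts, which weights cells equally and leaves 1270 genes above the filter, gave 274.

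**Figure D2:**
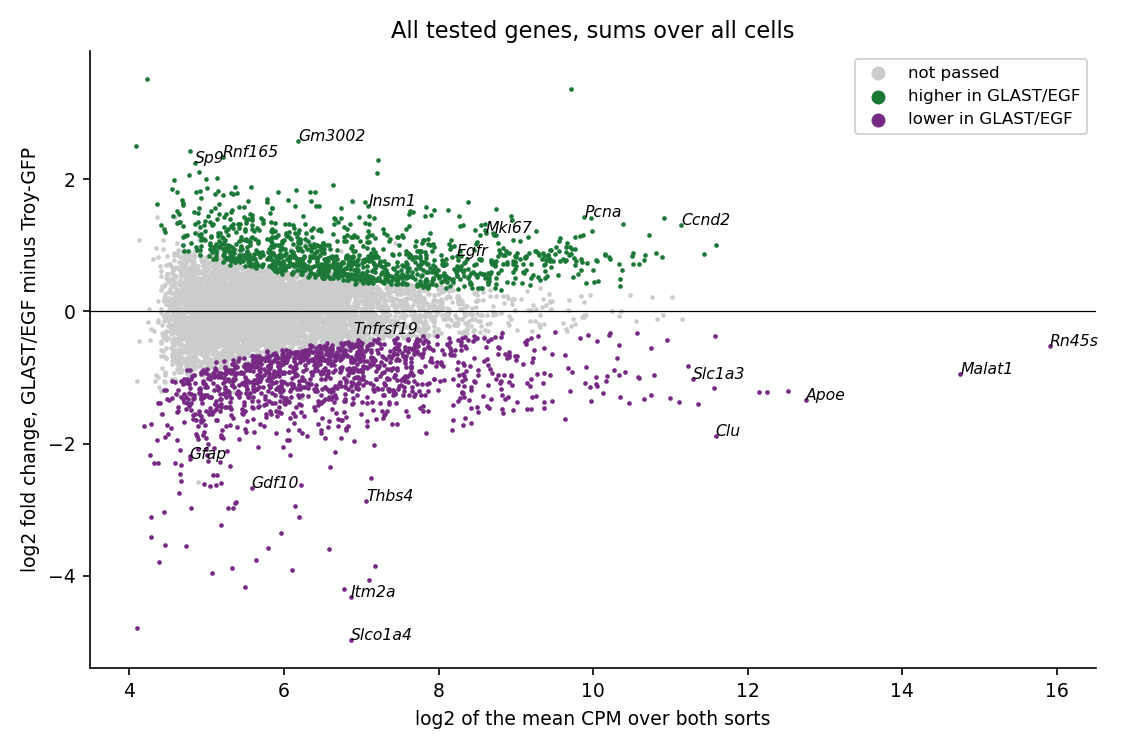
Log2 fold change of GLAST/EGF minus Troy-GFP for every gene tested over all cells (vertical axis) against the log2 of its mean CPM over both sorts (horizontal axis), with genes that passed in green (higher) or purple (lower). Of 7812 genes, 1131 were higher and 1285 lower.

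The markers shared by quiescent NSCs and astrocytes were lower in GLAST/EGF without exception among those tested. All 26 of the 27 listed markers that could be tested passed, with log2 fold changes from -2.87 to -0.83 and a median of -1.21. Of these, 25 had no overlap between libraries, as had 28.9% of all genes tested. Thbs4, a secreted matrix protein of SEZ astrocytes and NSCs, stood at 19.6, 77.2, 13.3 and 38.4 CPM in GLAST/EGF and at 175, 326, 231 and 192 CPM in Troy-GFP, a log2 fold change of -2.87 ± 0.36 (adjusted p = 4.8e-06). Clu, a secreted chaperone of astrocytes, stood at 1464, 1424, 1136 and 1234 CPM against 4504, 4796, 5022 and 4985 CPM. Its log2 fold change was -1.88 ± 0.09 (adjusted p = 3e-12), with every GLAST/EGF library at or below a CPM of 1464. Apoe, the main lipid carrier of the brain, stood at 4367, 3877, 3374 and 3984 CPM against 10042, 8616, 9798 and 11027 CPM, a log2 fold change of -1.34 ± 0.08. Gfap, the intermediate filament of astrocytes, was low in both sorts: 11.2, 5.72, 6.67 and 10.7 CPM against 36.6, 36, 39.4 and 73.1 CPM (-2.24 ± 0.51). Aqp4, the water channel of astrocyte endfeet, stood at 325, 183, 267 and 433 CPM against 767, 799, 1011 and 744 CPM (-1.48 ± 0.18). The Troy-GFP libraries were therefore the higher ones for a filament, a channel, secreted proteins and a lipid carrier alike.

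Genes that keep NSCs supplied or signalling followed the same direction in part. Of 18 astrocyte transporters and gap junction genes, all tested, 14 were lower and 0 higher, with a median of -1.04. Slc1a2, the other main astrocytic glutamate transporter, had a log2 fold change of -1.20 ± 0.07. In lipid metabolism 18 of 31 genes were lower and 1 higher (median -0.56), and in glycolysis 8 of 14 were lower and 0 higher (median -0.67). Aldoc, the aldolase of astrocytes, was at -1.31 ± 0.09. Subunits of the respiratory chain did not move that way, as 11 of 42 were higher and 0 lower, with a median of 0.20.

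Signalling genes were mixed. In the Wnt pathway 8 of 19 tested genes were lower and 1 higher (median -0.54). The receptor Fzd2 stood at 171, 149, 169 and 184 CPM in GLAST/EGF and at 336, 386, 554 and 481 CPM in Troy-GFP (-1.35 ± 0.15), and Wls, which carries Wnt ligands to the surface, stood at 56.1, 48.6, 51.1 and 44.8 CPM against 155, 154, 165 and 156 CPM (-1.63 ± 0.19). Ctnnb1, the gene of beta-catenin, was the 1 that was higher (0.72 ± 0.13). Among BMP and Id genes 5 of 11 were lower and 0 higher (median -0.59): the ligand Bmp7 was at -1.73, the receptor Bmpr1b at -1.32, and the helix-loop-helix inhibitors Id2, Id3 and Id4 at -1.37, -1.72 and -0.87. Id1 was at -0.53 and did not pass (adjusted p = 0.053). Among Notch pathway genes 4 of 15 were lower (26.7%) and 2 higher (13.3%), with a median of -0.26. Of all genes tested 16.4% were lower and 14.5% higher, so these counts say little about the pathway as a whole. Hes5, a target of Notch in stem cells, stood at 412, 217, 236 and 297 CPM against 525, 555, 612 and 708 CPM (-1.08 ± 0.15), and Hey1, another target, was at -1.32. The ligand Dll1, made by committed progenitors, was higher at 1.48 ± 0.37, as was Hes6, which opposes Hes proteins, at 0.90. Notch1 itself was at -0.21 and did not pass (adjusted p = 0.22). Apart from Egfr, the tested members of the EGF receptor family, its ligands and targets held 3 lower genes, the feedback inhibitors Spry4 (-1.74) and Spry2 (-0.65) and the ligand Hbegf (-1.24), and 1 higher, the transcription factor Etv1 (0.84).

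Markers of the later lineage were higher in GLAST/EGF. Of 18 tested markers of activated NSCs and transit-amplifying progenitors, 12 were higher and 1, Rgcc (-1.76 ± 0.23), was lower, with a median of 0.88. Ccnd2, the D cyclin of these progenitors, stood at 2959, 3165, 3567 and 3055 CPM in GLAST/EGF and at 1247, 1001, 1494 and 1527 CPM in Troy-GFP (1.30 ± 0.11), with no overlap. Insm1, a zinc finger factor of cells leaving the progenitor pool, was at 1.60 ± 0.19.

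Of 23 tested neuroblast markers, 13 were higher and 1, Ncam1 (-0.68 ± 0.12), was lower, with a median of 1.21. Dcx, the microtubule protein of migrating neuroblasts, stood at 95.4, 60, 209 and 145 CPM against 40.7, 32, 63 and 40.3 CPM (1.59 ± 0.29), and GLAST/EGF library 2 lay within the Troy-GFP range. Sp9, a transcription factor of olfactory bulb interneurons, stood at 44.9, 45.7, 55.6 and 44.8 CPM against 6.1, 10, 7.88 and 15.1 CPM (2.24 ± 0.44). Dlx2 (1.53 ± 0.17), a homeobox factor of this lineage, was also among the 13.

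**Figure D3:**
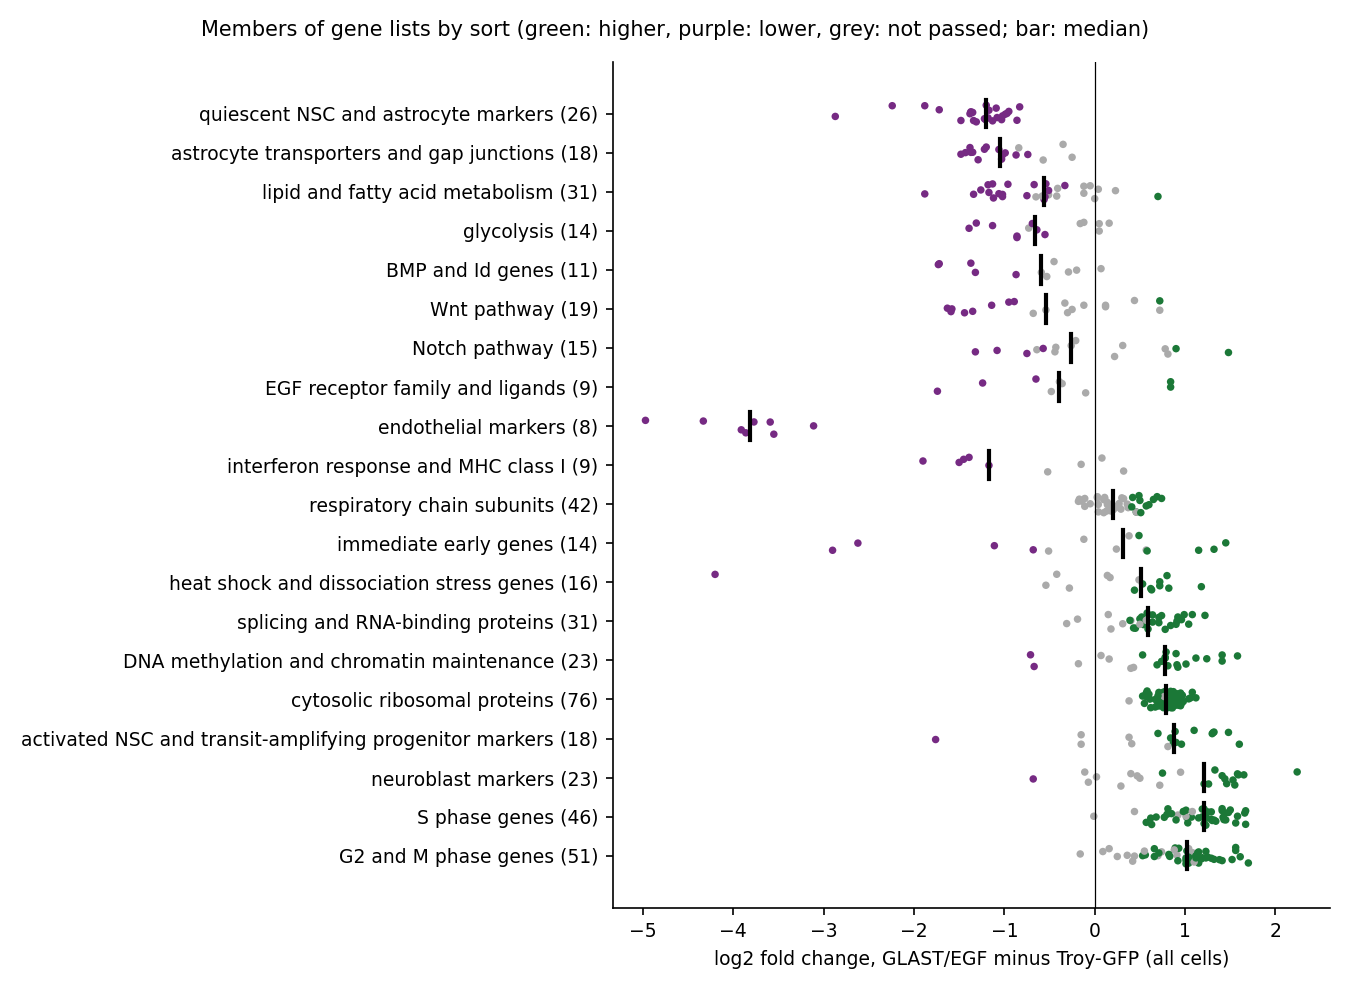
Log2 fold change, GLAST/EGF minus Troy-GFP over all cells, of each tested member of 20 gene lists (points, horizontal axis), with the number tested in brackets, a bar at the median of each list and grey for members that did not pass. The medians run from -3.82 for endothelial markers and -1.21 for quiescent NSC and astrocyte markers to 1.21 for neuroblast markers and S phase genes.

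Most cell cycle genes were higher. Of 46 tested S phase genes 41 were higher and 0 lower (median 1.21), and of 51 tested G2 and M phase genes 36 were higher and 0 lower (median 1.02). Mcm2, a subunit of the replicative helicase, stood at 163, 214, 171 and 164 CPM in GLAST/EGF and at 36.6, 58.1, 81.4 and 52.9 CPM in Troy-GFP (1.67 ± 0.21). Pcna, the sliding clamp of DNA polymerases, stood at 1543, 1367, 1267 and 1320 CPM against 427, 721, 557 and 376 CPM (1.43 ± 0.15). Both were higher in every GLAST/EGF library. Top2a, which untangles DNA before mitosis, stood at 825, 703, 316 and 544 CPM against 283, 376, 213 and 232 CPM (1.04 ± 0.22, adjusted p = 0.001), and its libraries overlapped. Among 13 tested D cyclins, kinases and inhibitors 8 were higher and 1 lower: Cdk4 (1.08), E2f1 (1.48) and Ccne1 (1.81), which drive entry into S phase, were higher. Genes that restrain it went both ways: Rb1 was lower (-0.49 ± 0.16, adjusted p = 0.025), and its relative Rbl1 (0.92 ± 0.28, adjusted p = 0.017) and the kinase inhibitor Cdkn1a (0.67 ± 0.22, adjusted p = 0.024) were higher. The inhibitor Cdkn1b was at 0.17 and did not pass (adjusted p = 0.49).

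Promoters of the cell cycle genes were read because these genes moved together. RefSeq promoter sequences (GRCm38.p6) were matched for 29 of the 36 G2 and M phase genes and 32 of the 41 S phase genes that were higher, and for 6017 of all genes tested, and the 250 bases before the start were searched on both strands. The letters of the cell cycle homology region (CHR; TTTGAA or TTCGAA) were found in 11 of the 29 G2 and M promoters (37.9%), 6 of the 32 S phase promoters (18.8%) and 11.5% of promoters of all genes tested. CCAAT was found in 72.4%, 68.8% and 37.2% of the same sets. The letters TTGGCGC or TTCGCGC, which E2F factors bind, were found in 24.1%, 18.8% and 6.85%. Among the 22 promoters of quiescent NSC and astrocyte markers that were lower, CHR letters stood in 4.55%, CCAAT in 40.9% and E2F letters in 4.55%. In all 27025 promoters of the table the shares were 17.4%, 34.5% and 3.23%. A match to so few letters is a description and not a binding site. As examples, the 120 bases before the start are given for the 2 G2 and M genes and the 2 S phase genes with the smallest adjusted p that hold the CHR or E2F letters there. Capitals mark the CHR letters in the first pair, the E2F letters in the second pair and CCAAT in either, on either strand, and E2F matches on opposite strands can overlap. Mki67 was described above. Hmgb2, a chromatin protein of dividing cells, had a log2 fold change of 0.92 ± 0.15, Mcm6, another helicase subunit, 1.48 ± 0.16, and Dtl, which marks replication factors for destruction, 1.67 ± 0.24.
Mki67 (chr7:135716380-135716499, minus strand): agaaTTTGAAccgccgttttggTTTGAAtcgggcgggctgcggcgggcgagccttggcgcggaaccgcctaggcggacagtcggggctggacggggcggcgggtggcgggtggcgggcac
Hmgb2 (chr8:57511723-57511842, plus strand): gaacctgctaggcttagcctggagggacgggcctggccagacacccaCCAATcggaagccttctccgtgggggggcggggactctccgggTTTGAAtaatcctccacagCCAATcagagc
Mcm6 (chr1:128359706-128359825, minus strand): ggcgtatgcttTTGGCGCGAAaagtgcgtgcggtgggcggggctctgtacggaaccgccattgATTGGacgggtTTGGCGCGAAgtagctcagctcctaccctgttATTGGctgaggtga
Dtl (chr1:191575545-191575664, minus strand): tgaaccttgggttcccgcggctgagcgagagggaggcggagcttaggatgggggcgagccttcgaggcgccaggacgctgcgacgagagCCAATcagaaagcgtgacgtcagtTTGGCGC

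Cytosolic ribosomal protein genes were higher almost as a block. Of 76 tested, 74 were higher and 0 lower, with log2 fold changes between 0.38 and 1.12 and a median of 0.79. Rps26, a small subunit protein, stood at 1259, 1195, 1249 and 1042 CPM in GLAST/EGF and at 541, 466, 580 and 605 CPM in Troy-GFP (1.12 ± 0.11, adjusted p = 2e-07). Rpl3, of the large subunit, was at 0.86 ± 0.12. The 2 that did not pass included Rpl7l1 (0.38 ± 0.16, adjusted p = 0.085). Their summed level was 54882 to 66711 CPM in GLAST/EGF and 30584 to 35257 CPM in Troy-GFP. Ribosomal protein genes have many processed copies in the genome, so the share of reads given to each is uncertain. Splicing and RNA-binding proteins were likewise higher in 23 of 31 cases and lower in 0 (median 0.59), and genes of DNA methylation and chromatin upkeep in 16 of 23 cases, with 2 lower (median 0.78). In the last group Ezh2 (1.24), which methylates histone H3, and Dnmt1 (0.81), which copies DNA methylation, were higher, and the DNA demethylases Tet1 (-0.67) and Tet2 (-0.71) were lower. Against these, 2 abundant noncoding RNAs were lower: Malat1, retained in the nucleus, at 18738 ± 1612 against 36403 ± 2484 CPM (-0.95 ± 0.07), and Rn45s, the precursor of ribosomal RNA, at -0.53 ± 0.06 (adjusted p = 1.9e-06).

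Some genes lay outside these lists and were named for the size of their difference. Among the 15 with the highest log2 fold changes, whose libraries did not overlap and whose mean was at least 50 CPM in the higher sort, Cdt1 and Rfc3 act in DNA replication. Cdt1, which loads the helicase, stood at 137, 152, 113 and 100 CPM in GLAST/EGF and at 26.4, 34, 39.4 and 40.3 CPM in Troy-GFP (1.81 ± 0.22), and Rfc3, of the clamp loader, was at 1.80 ± 0.25. E2f2 (1.89 ± 0.35) is a cell cycle transcription factor. Igfbpl1 (2.02 ± 0.52), Crmp1 (1.91 ± 0.26), Elavl2 (1.80 ± 0.34), Myt1 (1.82 ± 0.35) and Cplx1 (1.79 ± 0.35) are known from developing or mature neurons. Crmp1, a cytoskeletal protein of growing axons, stood at 177, 137, 211 and 109 CPM against 36.6, 32, 52.5 and 42.8 CPM, and no Troy-GFP library reached the lowest GLAST/EGF one. The rest were Gm3002 (2.58 ± 0.28), Rnf165 (2.33 ± 0.39), Shcbp1 (2.01 ± 0.59), Trp53i11 (1.88 ± 0.38), Lmo3 (1.87 ± 0.38), Ube2ql1 (1.84 ± 0.28) and Aff3 (1.78 ± 0.36). Gm3002 is 1 of a family of near-identical copies, so its value is uncertain. Shcbp1 did not pass without Troy-GFP library 1 (2.17) or library 4 (1.85).

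Endothelial genes gave the lowest values of all. All 8 tested endothelial markers of 11 listed were lower, from -4.97 to -3.11 with a median of -3.82. All 8 were at 0 or near it in GLAST/EGF libraries 1 and 3. They could therefore reach the filter of 4 libraries only with the help of Troy-GFP libraries. The count of lower markers is thus partly set by the filter. Slco1a4, a transporter of the blood-brain barrier, stood at 0, 65.8, 0 and 17.1 CPM in GLAST/EGF and at 295, 216, 179 and 161 CPM in Troy-GFP (-4.97 ± 0.80). Cldn5, the tight junction protein of brain vessels, stood at 0, 37.2, 0 and 14.9 CPM against 108, 154, 47.3 and 35.3 CPM (-3.77 ± 0.79), with GLAST/EGF library 2 inside the Troy-GFP range. Vwf (-4.17 ± 0.73), a clotting factor of endothelium, Tie1 (-3.96 ± 0.69), an endothelial receptor, and Abcb1a (-3.91 ± 0.78), an efflux pump of the barrier, were among the 15 lowest named genes, with Itm2a (-4.33 ± 0.56) and Hspb1 (-4.20 ± 0.60). The summed level of the marker list was 2.71 to 926 CPM in GLAST/EGF and 773 to 1374 CPM in Troy-GFP, so the sorts overlapped. Flt1, a receptor of vascular growth factors, and Ly6c1 even stood above every Troy-GFP library in GLAST/EGF library 2, at 189 against at most 120 CPM and at 314 against at most 294 CPM, although their fitted log2 fold changes were -3.11 ± 0.85 and -3.86 ± 0.73. Slco1a4, Cldn5, Vwf, Tie1 and Abcb1a were all at 0 in GLAST/EGF libraries 1 and 3. Without GLAST/EGF library 1, 5 endothelial markers passed in place of 8. Slc38a5, an amino acid transporter, was at 0 in every GLAST/EGF library and had 62 transcripts in Troy-GFP. That makes it at least 19-fold lower against a floor of 3 transcripts over the sort. It reached the filter through the Troy-GFP libraries alone. With only NSC-like and progenitor- or neuroblast-like cells kept, an alternative added after the data were seen, 2274 of 7207 genes still passed in the comparison of sorts. The endothelial-like cells are left out there by construction, and no endothelial marker reached the filter or could be tested.

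The other lowest named genes belong to NSCs and astrocytes or have varied roles. Gdf10, a ligand of the BMP group, stood at 14, 5.72, 15.6 and 12.8 CPM in GLAST/EGF and at 83.4, 94.1, 91.9 and 65.5 CPM in Troy-GFP (-2.68 ± 0.40). C4b, a complement component, stood at 42.1, 14.3, 24.4 and 42.7 CPM against 118, 144, 242 and 149 CPM (-2.36 ± 0.32). For both, all Troy-GFP libraries lay above all GLAST/EGF ones. The adenosine receptor Adora2b was at -2.64 ± 0.49, the adhesion receptor Cd97 at -2.61 ± 0.49, the RNA-binding protein Rbms1 at -2.62 ± 0.47, the hyaluronan-binding Itih5 at -2.52 ± 0.31 and the synaptonemal complex gene Sycp2 at -2.28 ± 0.42. MHC class I and interferon genes were lower in 5 of 9 tested cases and higher in 0 (median -1.17), among them H2-K1 (-1.50), B2m (-1.39) and Ifit3 (-1.90).

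Other marker lists moved with single libraries. Mbp, a myelin protein, stood at 19.6, 395, 167 and 451 CPM in GLAST/EGF and at 61, 28, 36.8 and 32.8 CPM in Troy-GFP. GLAST/EGF library 1 was below all Troy-GFP libraries and the other 3 above them, and the difference passed (2.29 ± 0.65). The 11 oligodendrocyte markers summed to 230 to 5241 CPM in GLAST/EGF and 412 to 525 CPM in Troy-GFP. No microglial or oligodendrocyte precursor marker passed the filter, with sums of 4.33 to 553 against 3.7 to 27.6 CPM and 10.8 to 19 against 18.4 to 445 CPM. Of the other marker lists few members could be tested: 1 of 2 ependymal markers was lower, as were the only tested pericyte marker, Pdgfrb (-1.50), and the only tested mature neuron marker, Meg3 (-1.55). In the list of Troy-related receptors 1 of 5 was lower (20%, near the 16.4% of all genes tested) and 0 higher (median -0.34). Immediate early genes, which respond to stimulation and to tissue dissociation, were higher in 5 and lower in 4 of 14 tested cases. Egr1 stood at 799, 861, 791 and 457 CPM against 293, 316, 202 and 214 CPM (1.45 ± 0.19) and Fos was at 1.15 ± 0.17, while Klf2 (-2.90) and Klf4 (-2.62), which endothelium also uses, were lower. Heat shock and dissociation stress genes summed to 7298 to 10087 CPM in GLAST/EGF and 5245 to 5903 CPM in Troy-GFP, with 9 of 16 higher and 1 lower. Their part in the other differences was not tested.

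Cells were then assigned to classes by clustering all 1789 cells of the series and naming clusters from marker genes. The classes and the gene differences rest on the same transcripts. NSC-like cells made up 50.9%, 40.4%, 30.8% and 40.3% of the GLAST/EGF libraries and 76.2%, 43.4%, 73.6% and 69.9% of the Troy-GFP libraries, or 40.6% ± 8.23 against 65.8% ± 15.1 (exact permutation p = 0.0571, adjusted p = 0.133 over 7 classes). Troy-GFP library 2 was the low one, and 32.9% of its cells were unnamed, most of them in a cluster led by intestinal genes. Progenitor- or neuroblast-like cells made up 49.1%, 44.7%, 59.6% and 37.1% against 11.2%, 11.8%, 13.9% and 19.3%, or 47.6% ± 9.41 against 14.1% ± 3.65 (exact permutation p = 0.0286, adjusted p = 0.1). The libraries did not overlap for this class, so GLAST/EGF was also higher within each flow cell, and 0.0286 is again the smallest p possible. Without the leading intestinal genes in the clustering, a choice made after the data were seen, NSC-like shares were 54.5%, 53.2%, 51.9% and 66.1% against 77.5%, 76.3%, 75% and 74.7% and no longer overlapped (exact permutation p = 0.0286). Progenitor- or neuroblast-like shares were then 45.5%, 31.9%, 42.3% and 24.2% against 7.5%, 10.5%, 12.5% and 14.5%.

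**Figure D4:**
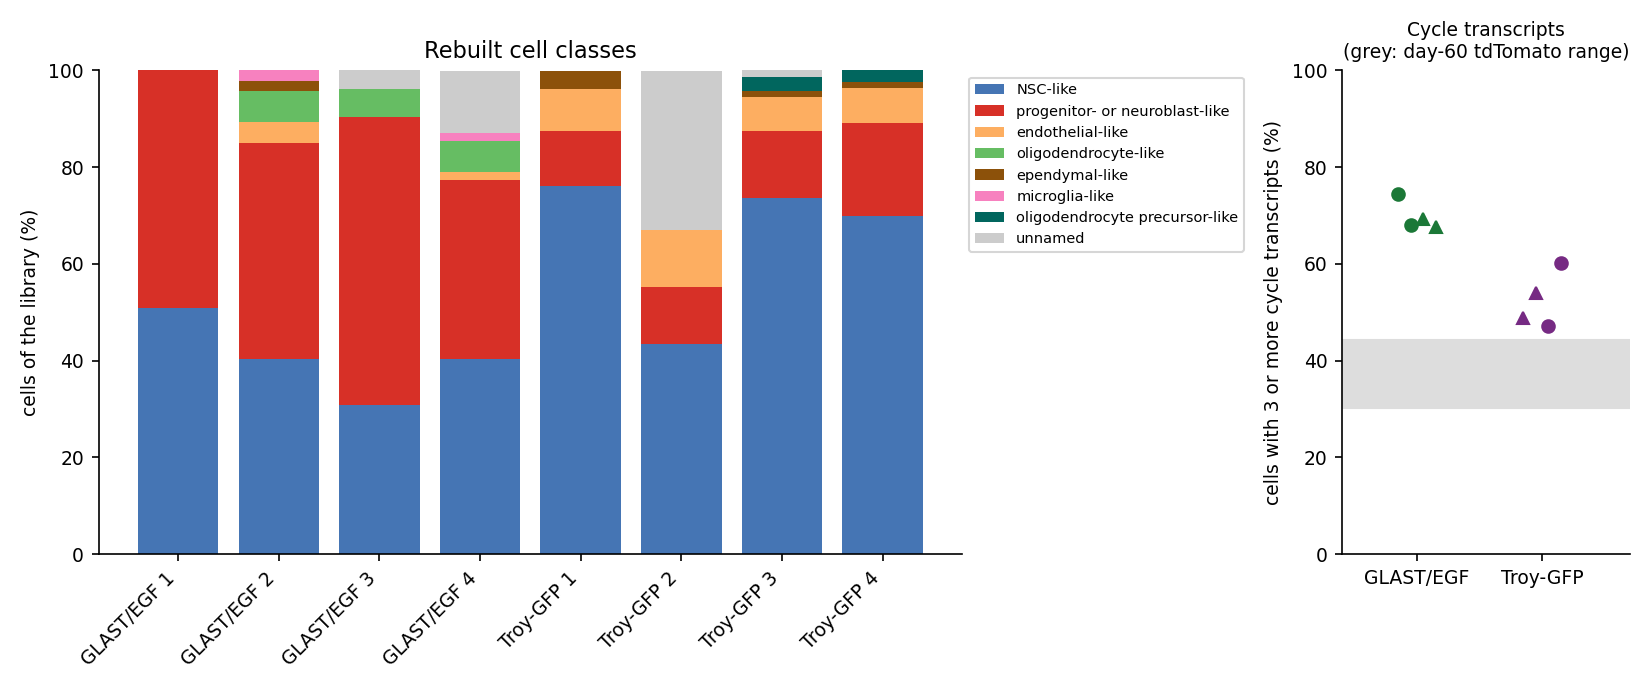
The left panel stacks the percent of cells of each library in each class. The right panel gives the percent of thinned cells with at least 3 cell cycle transcripts in each library (circles and triangles for the 2 flow cells). Grey marks the range of the day-60 tdTomato libraries, from older mice given tamoxifen. Progenitor- or neuroblast-like cells run from 37.1% to 59.6% in GLAST/EGF and from 11.2% to 19.3% in Troy-GFP, and cells with cell cycle transcripts from 67.7% to 74.5% and from 47.2% to 60.2%.

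Endothelial-like cells made up 0%, 4.26%, 0% and 1.61% of the GLAST/EGF libraries and 8.75%, 11.8%, 6.94% and 7.23% of the Troy-GFP libraries, or 3 against 27 cells (exact permutation p = 0.0286, adjusted p = 0.1). Oligodendrocyte-like cells were 10 in GLAST/EGF, at 0%, 6.38%, 5.77% and 6.45%, and 0 of 311 in Troy-GFP, which allows a share of up to 0.965% (exact permutation p = 0.143, adjusted p = 0.25). Oligodendrocyte precursor-like cells were 0 of 216 in GLAST/EGF, which allows up to 1.39%, and 4 in Troy-GFP. Both limits take pooled cells as independent and cover counting error only, not the spread between libraries. Both sorts had cells in all 4 NSC-like clusters, whose shares were not tested: 32 GLAST/EGF and 115 Troy-GFP cells lay in the cluster led by Crym and Hapln1, 22 and 61 in the cluster led by Thbs4 and Gfap, 20 and 20 in the cluster led by Igfbp2 and Ptchd4, and 14 and 9 in the cluster led by Agt and Islr. In the progenitor- or neuroblast-like class 61 and 29 cells lay in the cluster whose leading genes include Egfr. The clusters led by Mcm2 and Dlx1as, by Mki67 and Ccna2 and by Top2a and Nusap1 held 17 and 3, 13 and 6, and 10 and 3 cells.

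Depth per cell differed between the classes. The median NSC-like cell held 4168 transcripts in GLAST/EGF and 5316 in Troy-GFP, and the median progenitor- or neuroblast-like cell 11511 and 9627. Sums over all cells therefore give progenitor- or neuroblast-like cells more weight than their share of cells. In such sums, fewer cells of a type and less RNA per cell cannot be told apart.

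The share of cells with cell cycle transcripts was measured at equal depth. With each cell thinned to 1000 transcripts, at least 3 transcripts of 107 S, G2 and M phase genes were found in 74.5%, 68.1%, 69.2% and 67.7% of GLAST/EGF cells and in 48.8%, 53.9%, 47.2% and 60.2% of Troy-GFP cells. The libraries did not overlap, within either flow cell or over both, at 69.9% ± 3.16 against 52.5% ± 5.89, a difference of 17.4 percentage points (exact permutation p = 0.0286, higher in 4 of 4 libraries). The day-60 tdTomato libraries of the series, given as background, ran from 30.3% to 44.2%. At a minimum of 5 transcripts the shares were 52.4% ± 3.55 and 22.4% ± 3.95, against 4.49% to 10.6% in the background. Without thinning nearly every cell passed, and the difference was 0.0205 points. Within the NSC-like class the share was 44.3% of 88 GLAST/EGF cells (exact binomial interval 33.7% to 55.3%) and 43.9% of 205 Troy-GFP cells (37% to 51%). Within the progenitor- or neuroblast-like class it was 94.1% of 102 cells (87.6% to 97.8%) and 93.2% of 44 cells (81.3% to 98.6%). The intervals cover counting error only. These class shares pool cells over libraries and use the first clustering. They were not counted in the classes clustered without the leading intestinal genes. Over NSC-like cells of that clustering, 4 of 10 tested S phase genes were higher in GLAST/EGF (median 0.92).

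With the classes as first clustered, the sorts differed less within a class than over all cells, but for NSC-like cells this depended on how the class was drawn. Over NSC-like cells 8 of 3586 genes passed (0.223%), and over progenitor- or neuroblast-like cells, a fit added after the data were seen, 2 of 4227 (0.0473%). Among 3585 genes tested over all cells and over NSC-like cells, 1525 passed over all cells. Their median absolute log2 fold change was 0.80 over all cells and 0.19 over NSC-like cells, with median standard errors of 0.17 and 0.25. For the 1496 such genes also tested in progenitor- or neuroblast-like cells, the medians were 0.77 and 0.18. In this clustering the list medians moved in the same way: that of the quiescent NSC and astrocyte markers went from -1.21 to 0.03 over NSC-like cells, that of the ribosomal proteins from 0.79 to 0.08, and those of S phase and of G2 and M phase genes to -0.01 and -0.14 over progenitor- or neuroblast-like cells. The quiescent NSC and astrocyte markers also named the NSC-like clusters. Their smaller difference within that class was thus partly set in advance by how the class was made. Over NSC-like cells clustered without the leading intestinal genes, the medians were -0.38 for the quiescent NSC and astrocyte markers and 0.71 for the ribosomal proteins. Over all cells these were -1.21 and 0.79. For the activated NSC and progenitor markers the class median was 1.11 over 12 genes, against 0.88 over 18 genes in all cells. For S phase genes the class median was 0.92 over 10 genes, against 1.21 over 46 genes in all cells. The last 2 comparisons are not over the same genes. In the first clustering Slc1a3 was at 0.14 ± 0.09, Egfr at 0.92 ± 0.23 and Tnfrsf19 at 0.18 ± 0.26 over NSC-like cells, and none of the 3 passed.

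**Figure D5:**
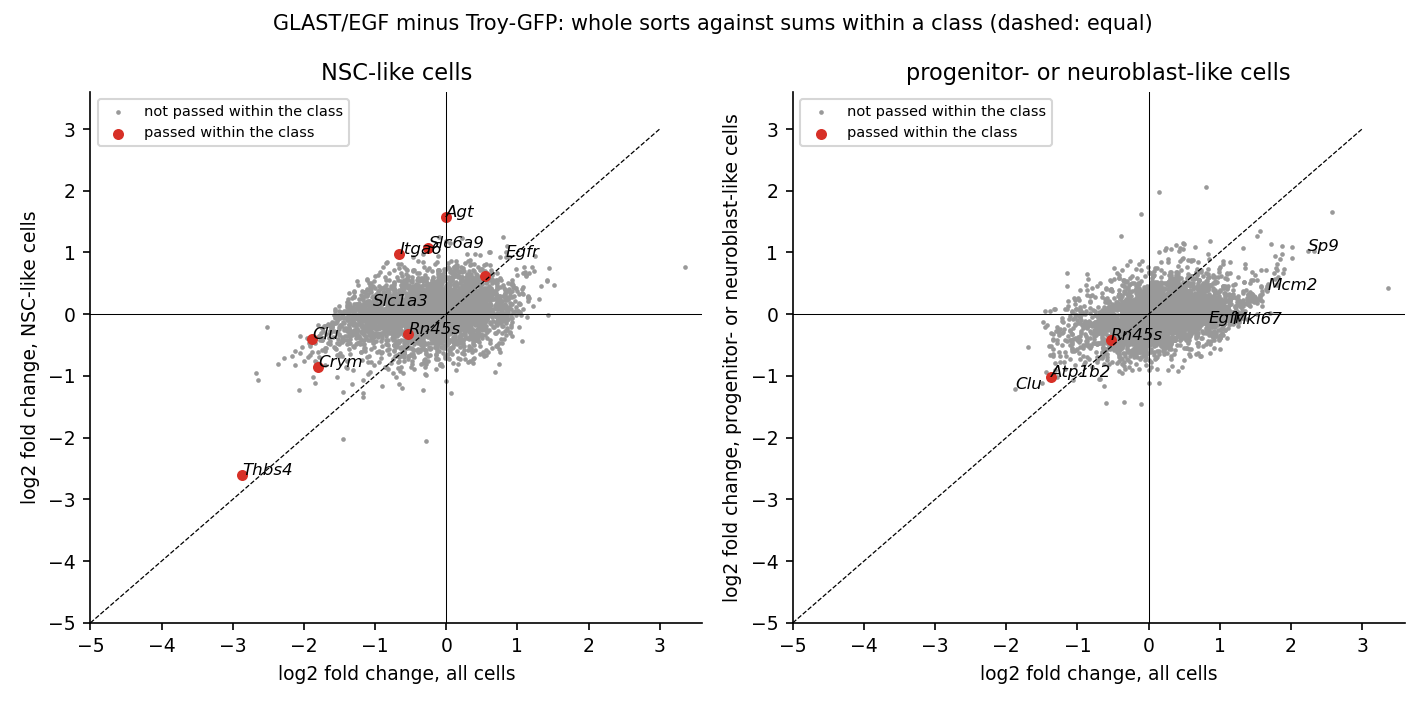
Log2 fold change over all cells (horizontal axis) against that over NSC-like cells (left) or progenitor- or neuroblast-like cells (right), for genes tested in both, with genes that passed within the class in red and a dashed line where the values are equal. The classes are those of the first clustering: for genes that passed over all cells the median absolute log2 fold change is 0.80 over all cells and 0.19 over NSC-like cells.

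The 8 genes that passed over NSC-like cells split evenly by direction. Clu stood at 6381, 6700, 5378 and 5424 CPM in GLAST/EGF and at 7123, 7360, 8226 and 8769 CPM in Troy-GFP (-0.40 ± 0.08, adjusted p = 0.013), and Crym, a thyroid hormone-binding protein, at 282, 468, 436 and 471 CPM against 491, 798, 1034 and 773 CPM (-0.85 ± 0.20, adjusted p = 0.049). Neither overlapped between sorts. Itga6, the laminin receptor subunit, stood at 243, 226, 270 and 351 CPM against 114, 130, 136 and 199 CPM and was higher in GLAST/EGF (0.98 ± 0.22, adjusted p = 0.04). Over all cells Itga6 had been lower in GLAST/EGF, at -0.66 ± 0.21 (adjusted p = 0.019). The pseudogene transcript 6820431F20Rik was also higher over NSC-like cells (0.62 ± 0.14, adjusted p = 0.035). Rn45s was lower (-0.32 ± 0.05). The other 3 overlapped between sorts and are named after their values were seen. Agt, angiotensinogen, stood at 231, 96.9, 421 and 383 CPM against 176, 43.5, 162 and 45.2 CPM (1.57 ± 0.33), the glycine transporter Slc6a9 at 513, 161, 285 and 416 CPM against 173, 136, 166 and 158 CPM (1.07 ± 0.23), and Thbs4 at 25.6, 387, 15 and 65.7 CPM against 283, 603, 372 and 334 CPM (-2.60 ± 0.58). GLAST/EGF library 2 was the exception in the last 2. Crym, Thbs4, Agt and Slc6a9 are also among the leading genes of single NSC-like clusters. In sums over the class, the mix of these clusters and the expression within them cannot be told apart. Over progenitor- or neuroblast-like cells Atp1b2, a sodium pump subunit of astrocytes, stood at 373, 303, 425 and 450 CPM against 1096, 775, 631 and 679 CPM (-1.02 ± 0.15, adjusted p = 0.0031), and Rn45s was at -0.42 ± 0.04.

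These counts rest on where the line around the class was drawn and on single libraries. With the leading intestinal genes left out of the clustering, 147 of 5304 genes passed over NSC-like cells, 99 higher and 48 lower. They included 32 of 75 ribosomal protein genes, 5 of 12 activated NSC and progenitor markers and 4 of 10 S phase genes, all higher, and 4 of 26 quiescent NSC and astrocyte markers, lower. Egfr then passed at 1.13 ± 0.22 (adjusted p = 0.0081), while Agt (0.96), Slc6a9 (0.41) and Itga6 (0.36) did not. Leaving out 1 library at a time gave 0 genes (without GLAST/EGF library 3) to 16 (without Troy-GFP library 1) over NSC-like cells, with 14 without GLAST/EGF library 2, 2 without GLAST/EGF library 1, 1 without GLAST/EGF library 4, 4 without Troy-GFP library 2 and 5 without Troy-GFP library 4. Over progenitor- or neuroblast-like cells it gave 2 to 6 (without Troy-GFP library 4).

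The difference of the sorts itself differed between flow cells for 2 of 7812 genes (0.0256%), and 7 genes (0.0896%) differed between flow cells. Hspa1a and Hspa1b, neighbouring and near-identical genes of the inducible chaperone Hsp70, were the 2. Hspa1a stood at 163, 289, 64.5 and 68.3 CPM in GLAST/EGF and at 169, 152, 118 and 42.8 CPM in Troy-GFP, and its log2 fold change was 1.61 on flow cell HVJH2BGXX and -1.24 on AHY73KBGXX (interaction -2.86 ± 0.48, adjusted p = 0.029). Within AHY73KBGXX alone 1334 genes passed between the sorts and within HVJH2BGXX alone 1021, with 2 against 2 libraries each.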

How the data were processed

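Single cells were sorted into 384-well plates and read by SORT-seq on a NextSeq500, per the labels' protocols. The submitters' processing notes name the aligner BWA, version 0.6.2-r126, and the build mm10. The deposited tables hold, per gene and well, an estimated count of transcripts that the authors corrected for collisions of 256 random barcodes, which differs from raw read counts (unit other) and is not scaled between wells. Of 4801006 values above 0, 4800995 were whole barcode numbers so corrected, within 1e-06. Rows of spike-in RNA (87) were left out.

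Cells had at least 1000 transcripts and were summed per library. Genes needed 10 transcripts at the median library size in 4 libraries and 15 in all. Library sizes were adjusted by the trimmed-mean method (TMM), and the sums were tested with limma 3.58.1 voom (R 4.3.3) with sort and flow cell as terms. Adjusted p is Benjamini-Hochberg over all genes tested, and passing means below 0.05. The planned tests of edgeR and DESeq2 were not run, since the unit was not recorded as counts. All cells of the series were clustered with scanpy 1.11.5 (2000 variable genes, 30 components, 15 neighbours, resolution 1), and clusters were named from 10 marker sets. Cells were sorted 1 per well, and no doublet caller was run. Shares were compared by exact 2-sided permutation tests of 4 against 4 libraries. CPM of single genes are TMM-scaled transcripts per 1000000. Summed CPM of gene lists, of intestinal genes and of NSC markers are per 1000000 transcripts without TMM scaling. Promoters came from RefSeq GRCm38.p6.

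The members and gene lists were chosen with earlier results of these data known. Named genes were the sort genes, list members, and, of genes that passed without overlap of libraries and with at least 50 CPM in the higher sort, the 15 highest and 15 lowest log2 fold changes (10 each over NSC-like cells) and the 5 smallest interaction p-values. A few named genes are not reported here. Malat1, Rn45s and Slc38a5 were added after their values were seen. Alternatives were other scalings, filters, cell minimums, observed barcodes, thinning, single flow cells and left-out libraries. Those on intestinal genes, on the progenitor- or neuroblast-like class and on the 2 classes together were added after the data were seen.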

Additional observations from a re-analysis of the deposited data

Results flagged for a closer look

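In 94 groups of 4 libraries tested for a library far from the others, 11 were found, where chance gives about 1 in 20. Slc1a3 stood at 3135 CPM in Troy-GFP library 4, below 3412 to 3439 CPM in the others. Cd24a stood at 478 CPM in GLAST/EGF library 3, above 297 to 323 CPM, and Trp53i11 at 111 CPM there, above 58.9 to 62.9 CPM. In GLAST/EGF library 1 Shcbp1 stood at 87 CPM (others 37.8 to 40.6), E2f2 at 81.3 CPM (others 57.2 to 60) and Cd97 at 5.61 CPM (others 8.54 to 8.89). In GLAST/EGF library 2 Aff3 stood at 74.3 CPM (others 57.6 to 58.9), and ependymal-like cells made up 2.13% against 0% in the others. Itm2a stood at 176 CPM in Troy-GFP library 3, below 228 to 232 CPM. Oligodendrocyte-like cells made up 0% of GLAST/EGF library 1 and 5.77% to 6.45% of the others. Intestinal genes summed to 1235 CPM in Troy-GFP library 2, above 18.4 to 25.8 CPM in the other Troy-GFP libraries.

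The difference between sorts itself differed between flow cells, by the interaction term of limma, for Hspa1a (-2.86) and Hspa1b (-3.31).

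Wells below the minimum of 1000 transcripts, which entered no comparison of the report other than the alternative with a minimum of 500, also held intestinal transcripts: 95 in GLAST/EGF library 3, 200 in GLAST/EGF library 4 and 161 in Troy-GFP library 2, against at most 2 in any other library of the 2 sorts.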

How the results depend on the processing

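Over all cells, 2403 to 2437 genes passed with median-ratio scaling, with no filter, with cell minimums of 500 or 2000 transcripts and with observed barcodes, and 2365 without the flow cell term. After thinning, 274 passed (148 higher, 126 lower), with 16 quiescent NSC and astrocyte markers and 5 endothelial markers lower and 3 activated NSC and progenitor markers, 5 neuroblast markers, 4 S phase, 7 G2 and M phase and 1 immediate early gene higher. Egfr was then at 0.32 (adjusted p = 0.46). Fewer genes were tested there (1270). Within flow cell AHY73KBGXX 1334 passed (603 higher, 731 lower), with 12 G2 and M phase and 2 immediate early genes higher. Within HVJH2BGXX 1021 passed (502 higher, 519 lower), with 7 activated NSC and progenitor markers higher and 3 endothelial markers lower. Fewer samples entered both. Without cells holding intestinal transcripts Tnfrsf19 was at -0.59. With only NSC-like and progenitor- or neuroblast-like cells, 0 endothelial markers passed, as none could be tested, and Prom1 was at 0.15 (adjusted p = 0.79). Leaving out 1 library gave 5 (without GLAST/EGF library 1) to 8 endothelial markers. None of the 30 genes named for the size of their difference over all cells turned its direction in any setting that gave it a value. They were picked for large differences without overlap of libraries in these same data, so a kept direction was largely set by that choice. After thinning 25 of them could not be tested, and 8 not with the 2 classes alone. Of 597 values for them, 16 no longer passed, 13 of these within HVJH2BGXX alone.

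Over NSC-like cells, 0 genes passed after thinning (0 higher, 0 lower, 374 tested), 147 with clusters made without intestinal genes (99 higher, 48 lower), and 0 to 16 without 1 library (0 to 12 higher, 0 to 6 lower). Over progenitor- or neuroblast-like cells the clusters without intestinal genes gave 4, of which 4 lower, and leaving out 1 library gave 2 to 6 (0 to 1 higher, 2 to 6 lower). The cause was not tested.

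Deviations of same-numbered libraries of the 2 sorts correlated at -0.08 to 0. Those of libraries on the same flow cell correlated at -0.02 to 0.05. Whether replicate numbers mark anything shared between the sorts cannot be told from such values. With the replicate block in place of the flow cell, 2170 genes passed over all cells and 3 over NSC-like cells (1 higher, 2 lower). With the block beside the flow cell, 2207 passed over all cells.

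The NSC-like share differed by -19.4 points with clusters made without intestinal genes (exact permutation p at its smallest, 0.0286). The endothelial-like share differed by -6.63 points at a minimum of 2000 transcripts. The cell cycle share differed by 0.0205 points without thinning. Without 1 library the differences ran from 29.6 to 37.1 points for progenitor- or neuroblast-like cells, -8.15 to -6.17 for endothelial-like cells and 15.6 to 19.9 for cell cycle transcripts, where 3 against 4 libraries cannot go below 0.0571.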

Other observations

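The 7 genes that differed between flow cells were all higher on AHY73KBGXX in both sorts together. They include Rapgef4 (1.71 ± 0.21), Slx1b (1.23 ± 0.17), Nol10 (1.11 ± 0.16), Gm20594 (0.85 ± 0.15), Grk4 (0.71 ± 0.13) and Gm12070 (0.71 ± 0.14). The next genes by the p of the interaction did not pass. Dlx6os1, a noncoding RNA beside the Dlx5 and Dlx6 genes, stood at 16.3 and 10 CPM in Troy-GFP libraries 1 and 2 and at 78.8 and 88.2 CPM in libraries 3 and 4 (interaction 3.15, adjusted p = 0.1). Notum, which inactivates Wnt ligands, gave 2.60 (adjusted p = 0.085), and Dnajb1, a partner of Hsp70, gave -2.14 (adjusted p = 0.1).

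The intestinal cluster held 34 cells of these sorts, 2 of GLAST/EGF library 3, 8 of GLAST/EGF library 4 and 24 of Troy-GFP library 2. It was led by Gstm3, Adh1 and Lypd8, and its cells held a median of 63328 CPM of NSC markers, against 67753 CPM in NSC-like cells.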
